A study of Owenia fusiformis with 9 samples.

Results

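In adult *Owenia fusiformis*, a tube-dwelling annelid worm, 200 transcripts were read almost wholly in the library of the blood vessel and are described here across the 9 adult tissue libraries. They were selected by their measured values. A transcript had to have a normalized read count of at least 100 in the blood vessel, and its blood vessel value plus 10 had to be at least 5 times the highest of the other 8 libraries plus 10. Of the 31911 transcripts of the table, 928 met both conditions (2.91%), and the 200 with the highest of these ratios were kept. The height of these transcripts in the blood vessel is therefore what chose them and is given as a description, with no test. The selection left free how the 200 differ among themselves and how the other transcripts of the same genes behave. It also left free how the identifiers lie in the numbering of the genes. Which other library comes next was not named by the selection, but its limit on every other library acts on this.

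Adult tissues and body regions of this species were profiled by RNA-seq, with 1 library for each tissue. The blood vessel library (male) is set against the head plus chaetae, retractor muscle and testis (all male) and the body wall, midgut (labelled gut), ovary, head and tail (all female). A single male gave the chaetae sample, testis, blood vessel and muscle, a single female gave the gut, ovary and muscle, and head and tail came from 5 further females. The description names muscle for both worms, so the retractor muscle (male) and body wall (female) are placed by the sex in their labels. The animals were untreated adults kept in sea water with mud and fed algae. With 1 library per tissue, a difference between tissues cannot be told apart from a difference between worms, dissections or libraries, and no test between tissues was possible. In bulk tissue, fewer cells of a type and less RNA per cell cannot be told apart either.

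The values are read counts that the authors divided by a size factor per library with DESeq2. They are not divided by transcript length, so a value compares a transcript between libraries but does not rank different transcripts by abundance. The blood vessel was the shallowest library, with about 14608988 recovered reads, against 16438522 to 22177997 in the other 8. The testis and retractor muscle libraries stood apart, because their normalized values summed to 8.85 and 4.08 times the blood vessel sum, while the other 6 libraries summed to 0.718 to 0.878 times it. Rescaling each library to the same sum (CPM, values scaled to sum to 1000000 in each library) lowers the testis by 3.15 and the retractor muscle by 2.03 on the log2 scale relative to the blood vessel, so an order that puts the testis or the retractor muscle first holds for the normalized values alone unless CPM is given beside it. A value of 1 read was 0.948 in the blood vessel but 5.53 in testis and 2.75 in retractor muscle, so 0 in testis still allows a value of up to 16.6 (3 reads).

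Annelids have a blood system of contractile vessels. The vessel wall consists of muscle-bearing cells of the body cavity lining that rest on a sheet of extracellular matrix facing the blood, and a continuous inner cell layer as in vertebrates is usually lacking. In many annelids the blood carries large haemoglobins or related oxygen carriers dissolved in the plasma, besides a few free blood cells. A vessel sample can therefore hold RNA of the wall, of blood cells and of tissue attached to the vessel. The identifiers in the table are not paired with gene names, and 0 of them was found among the 27038 genes of the RefSeq table of the species, so that no vessel marker could be looked up. Transcripts are named by identifier, in which the number stands for the gene and the suffix for the transcript, and the label blood vessel could not be checked against known genes.

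In the blood vessel, the values of the 200 transcripts lay between 251 and 568580, with a median of 4685. In 55 of them the value was 10000 or more, in 116 between 1000 and 10000, and in 29 below 1000. Together they took 24.2% of the blood vessel library, and 7 of its 10 most read transcripts were among them. The reads were concentrated in very few transcripts. The 3 most read made up 11.4% of the library and the 10 most read 14.9%, which is 61.7% of the reads of all 200. Outside the blood vessel the same 200 took between 0.0410% of the library, in the midgut, and 0.230%, in the ovary.

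**Figure D1:**
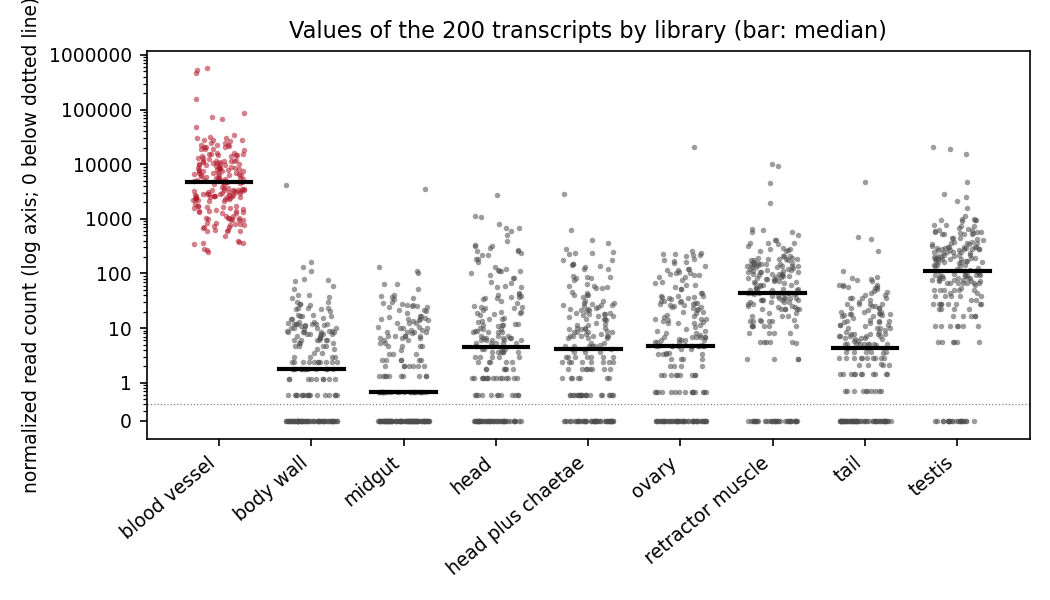
Normalized read counts of the 200 transcripts (points) in each library on a log axis, with zeros drawn below the dotted line and the median as a bar. The blood vessel values lie between 251 and 568580, and the medians of the other libraries lie between 0.663 in midgut and 111 in testis.

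The most read of the 200 was OFUSG08090.1. It had a normalized read count of 568580 in the blood vessel (95% exact Poisson interval 567143 to 570021, counting error only), against 20584 in testis, 10193 in retractor muscle, 465 in tail, 281 in head plus chaetae, 234 in ovary, 164 in head, 52.9 in body wall and 8.62 in midgut. It alone took 4.11% of the blood vessel library, and after the blood vessel the libraries of the testis and the retractor muscle were clearly the highest. In CPM it had 41056 in the blood vessel, against 181 in retractor muscle and 168 in testis. In the normalized values OFUSG21784.1 followed the same order of libraries at the top, with 468920 in the blood vessel, against 15383 in testis, 4547 in retractor muscle, 146 in head plus chaetae, 118 in ovary, 61.7 in tail, 36.3 in body wall, 35.3 in head and 9.94 in midgut. In CPM it had 125 in testis and 80.5 in retractor muscle, the reverse of the order in OFUSG08090.1. OFUSG00775.1 was as strongly read in the blood vessel but was not confined to a few other libraries. Its values were 537474 in the blood vessel, against 20264 in ovary, 19290 in testis, 9315 in retractor muscle, 4747 in tail, 4175 in body wall, 3480 in midgut, 2791 in head plus chaetae and 2765 in head. In CPM the ovary was again next (1795 CPM, against 38810 CPM in the blood vessel), while the testis (157 CPM) and the retractor muscle (165 CPM) were the lowest of the 9. It was thus the member with the highest value in 6 of the other 8 libraries, and without it the 200 took 0.0500% of the ovary library in place of 0.230% and 0.0124% of the midgut library in place of 0.0410%. For these 3 transcripts the distance between the blood vessel and the next library is what the selection required, so it is a description only.

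Of the remaining 7 among the 10 most read, OFUSG06935.1 had 154668 in the blood vessel, against 4770 in testis and 1942 in retractor muscle, and its other 6 values lay between 38.9 in ovary and 430 in tail. OFUSG17361.2 had 87730 in the blood vessel, against 2874 in testis, 656 in retractor muscle and at most 138, in the ovary, elsewhere. OFUSG02304.1 was hardly read in the remaining libraries, with 72503 in the blood vessel, against 2532 in testis, 361 in retractor muscle and at most 23.4, in the head plus chaetae, in the other 6. In all 3 the retractor muscle came after the testis in the normalized values. In CPM the retractor muscle was below the tail in OFUSG06935.1 (34.4 against 36.6 CPM) and below the ovary in OFUSG17361.2 (11.6 against 12.3 CPM). OFUSG09551.1 had 66233, OFUSG12007.1 48536, OFUSG07959.1 33679 and OFUSG05455.1 31091 in the blood vessel. In these 4 the testis came next, with 2134, 1553, 1122 and 956 in the same order. None of the 4 was above 100 in any of the female libraries. These 10 transcripts were chosen for their blood vessel values, and all but OFUSG00775.1 had the testis as the next library in the normalized values. In CPM the testis was next in 8 of the 10, the exceptions being OFUSG00775.1 (ovary) and OFUSG08090.1 (retractor muscle).

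**Figure D2:**
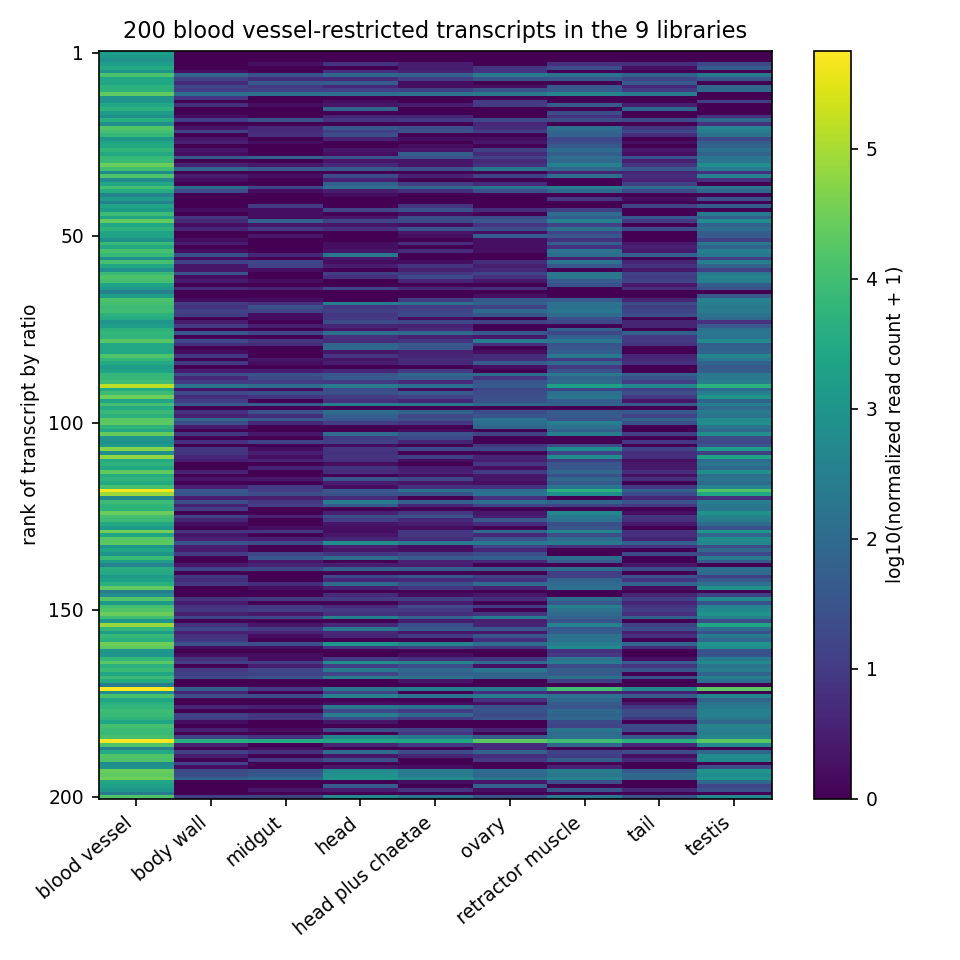
The 200 transcripts in rows, ordered by their ratio from the highest (top) to the lowest, in the 9 libraries; colour gives log10 of the normalized read count plus 1. The blood vessel column is bright throughout, the testis and retractor muscle columns are the next brightest on this scale, and the single row that is bright in every library is OFUSG00775.1.

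By the ratio used for the selection, the list ran from 166 down to 26.0, with a median of 31.4. Only 13 transcripts had a ratio of 50 or more and 33 of 40 or more, while 76 lay below 30. The limit of the list falls in a dense part of this order. The last member, OFUSG07310.1, had a ratio of 26.0 (15024 in the blood vessel, 569 in testis and 515 in head), and the last but one, OFUSG04265.2, had 26.1 (251 in the blood vessel and no read elsewhere). Just outside were OFUSG07319.1 with 25.9 (6977 in the blood vessel and 260 in testis) and OFUSG00096.1 with 25.9 (249 in the blood vessel and no read elsewhere). The 728 further transcripts that met the conditions at lower ratios had a median of 1659 in the blood vessel, against 4685 for the 200.

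In the other 8 libraries the 200 transcripts were low but seldom absent. A median of 7 of the other 8 libraries held at least 1 read, 81 transcripts were read in all 8, and 8 had no read in any of them. In 95 of the 200 the highest value elsewhere was below 100, and in 11 it was 1000 or more. Library by library, the median value was 111 in testis and 44.1 in retractor muscle, then 4.80 in ovary, 4.49 in head, 4.28 in tail and 4.20 in head plus chaetae, and 1.79 in body wall and 0.663 in midgut. The values in the ovary, head, tail and head plus chaetae thus lay close to each other, and with 1 library each their order has no meaning beyond these libraries. In CPM the medians were 0.902 CPM in testis and 0.781 CPM in retractor muscle, against 0.0545 to 0.452 CPM in the other 6, so both libraries stayed first by the median with a smaller lead. By the summed share of the library they were not first. This was 0.230% in ovary and 0.144% in head, against 0.0877% in testis and 0.0765% in retractor muscle. Without OFUSG00775.1 it was 0.117% in head, 0.0720% in testis, 0.0600% in retractor muscle and 0.0500% in ovary. Counted as transcripts with at least 10 reads, 133 of the 200 were present in the testis and 124 in retractor muscle, and the fewest, 58, were present in the midgut. Among all transcripts at 100 or more in the blood vessel this count is lowest in the testis (78.5%) and retractor muscle (87.3%), and the midgut has 92.1%.

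The testis value followed the blood vessel value closely across the list. In the 95 transcripts at 5000 or more in the blood vessel, the testis value was 3.10% of the blood vessel value at the median and 2.10% to 3.69% between the 5th and 95th percentiles, and 91 of the 95 lay between 2% and 4%. The selection itself caps this share at about 3.85%, but it sets no lower bound. In the same 95 transcripts the same percentiles spanned 0.214% to 2.50% for the retractor muscle, 0 to 3.43% for the head and 0 to 0.429% for the midgut. To see the testis without the cap, transcripts at 5000 or more in the blood vessel were taken with the ratio of the last member over the other 7 libraries, leaving the testis out of the selection, a choice made after the values were seen. These were 149 transcripts, the 95 among them, and the testis value was 3.47% of the blood vessel value at the median, 2.22% to 5.20% between the 5th and 95th percentiles and at most 7.42%. Of the 149, 1 had no testis read (OFUSG09772.3, described further on). Leaving out the head in the same way gave 135 transcripts, in which the same percentiles of the head value were 0.00124% and 7.33% of the blood vessel value, with 7 at 0 and 4 above 10%. In 97 transcripts chosen without the ovary they were 0 and 1.98% for the ovary, and in 96 chosen without the retractor muscle 0.218% and 2.50% for that library. As a share of the library, the testis level of the 149 transcripts was 0.392% of the blood vessel level at the median (0.25% to 0.587% between these percentiles). What sets the even share in the testis was not tested. In particular, it was not tested whether the testis reads of these transcripts came from testis cells, so the testis values and the counts with the testis next describe the library and not expression in the testis.

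**Figure D3:**
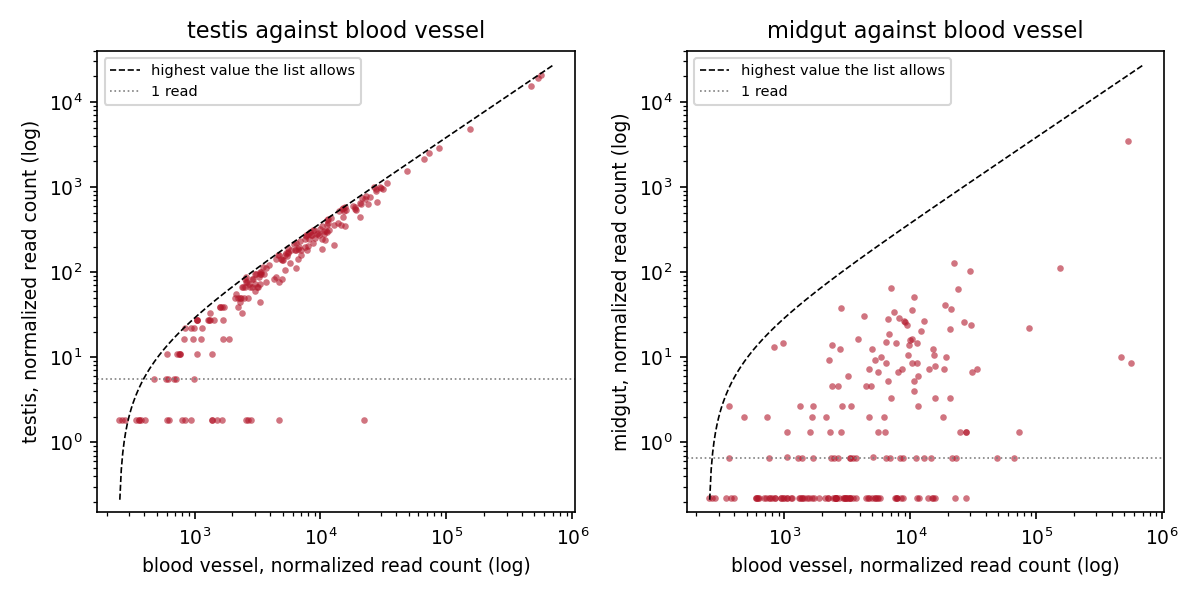
Testis (left) and midgut (right) value of each of the 200 transcripts against its blood vessel value, both as normalized read counts on log axes, with zeros drawn below the dotted line of 1 read. In the testis most points form a narrow band under the dashed upper limit of the list, and in the midgut they spread widely below it.

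The library next to the blood vessel was the testis in 140 of the 200 transcripts in the normalized values. Among all 8906 transcripts at 100 or more in the blood vessel, the testis was the highest of the other 8 in 19.7%. Among the 728 that met the conditions at lower ratios, the testis was next in 30.1% and the head in 31.3%. In the 200 these shares were 70% and 9%, so the counts are not free of the limit on the ratio. The retractor muscle came next in 19 of the 200, the head in 18, the ovary in 9, the body wall and the head plus chaetae in 2 each, and the tail and the midgut in 1 each. The retractor muscle (9.5%, against 8.65% of the 8906) and the head (9%, against 10.2%) were thus near their background. The ovary (4.5%, against 32.5%) was below it. For the body wall, head plus chaetae, tail and midgut the background was 5.3%, 5.68%, 3.29% and 14.6%. These counts depend on the scale. In CPM the testis was the next library in 50 of the 200 (25%, background 1.53%) and the head in 46 (23%, background 18.2%). The retractor muscle was next in 36 (18%, background 1.44%) and the ovary in 34 (17%, background 39.6%). The head plus chaetae was next in 11 (background 7.67%) and the tail in 6 (3.78%). The body wall was next in 5 (12.5%) and the midgut in 4 (15.2%), with the background in brackets. On this scale the next library was another male one in 97 of the 200 (48.5%), against 10.6% of all transcripts at 100 or more in the blood vessel, and it was a female library in 95. In the median, CPM in the blood vessel was 169 times that of the next library, with a range from 19.0 to 568 over the 192 transcripts that were read elsewhere. The worm and the tissue cannot be told apart in these counts.

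**Figure D4:**
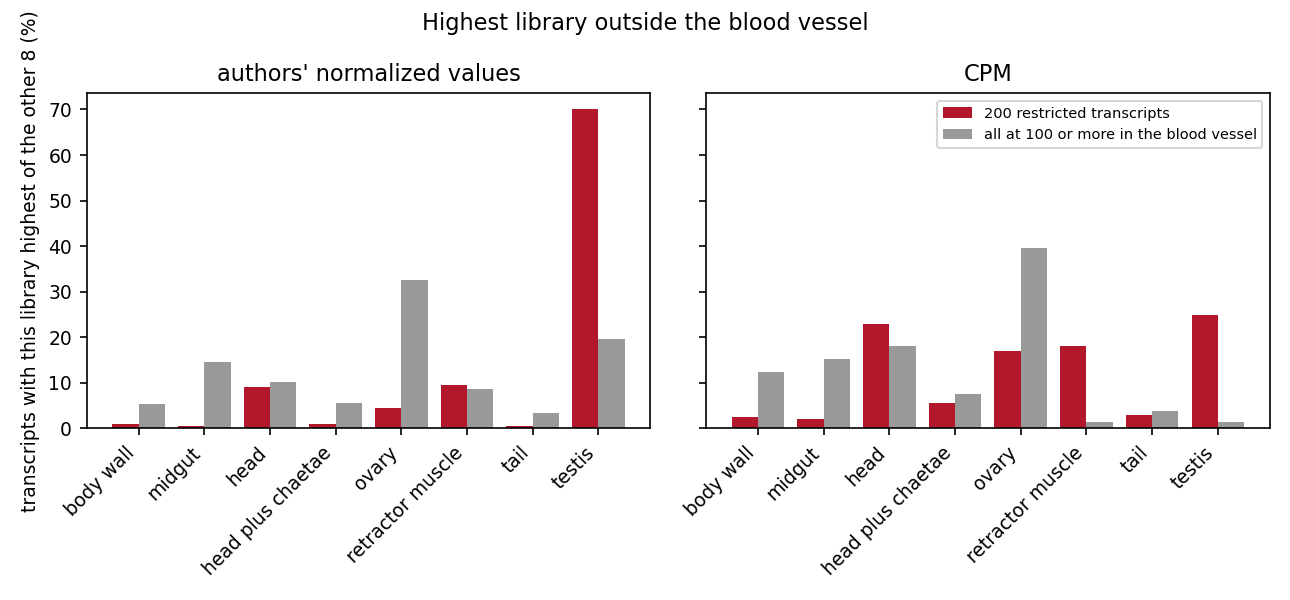
Share of transcripts (percent) for which each library is the highest of the other 8, for the 200 restricted transcripts (left bars) and for all transcripts at 100 or more in the blood vessel (right bars), in the authors' normalized values and in CPM. The testis is next for 70% of the 200 in normalized values and for 25% in CPM, against 19.7% and 1.53% of all.

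Among the 140 transcripts with the testis next, the testis value rested on a median of 32 reads, and in 29 on fewer than 10. OFUSG24581.1 had 1693 in the blood vessel, against 16.6 in testis (3 reads) and at most 5.98, in the head, in the other libraries. OFUSG11168.1 had 3323 in the blood vessel, against 44.2 in testis, 22.0 in retractor muscle and at most 6.84, in the ovary, elsewhere. OFUSG00009.1 differed in being spread, with 2388 in the blood vessel, against 33.2 in testis, 32.8 in retractor muscle, 29.5 in ovary and 4.19 to 15 in the other 5. OFUSG05689.1 had 4655 in the blood vessel and 77.4 in testis, OFUSG17892.1 had 4916 and 82.9, and OFUSG01130.1 had 1039 and 11.1. In CPM the testis was not the next library in any of these named transcripts. There the head was next in OFUSG24581.1, the body wall in OFUSG05689.1 and the ovary in the others. For OFUSG01130.1 the testis value rested on 2 reads, against 13 in ovary.

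The medians of the 18 transcripts with the head next were 6729 in the blood vessel, against 199 in head, 146 in testis, 52.0 in retractor muscle, 46.9 in ovary, 40.5 in head plus chaetae and 7.31 to 32.2 in the other 3. In 4 of the 18 the testis was at 0, and in 3 the retractor muscle. In CPM the medians were 485.9 in the blood vessel, against 20.02 in head, 4.16 in ovary, 3.55 in head plus chaetae, 2.74 in tail, 1.19 in testis and 0.921 in retractor muscle, so the testis and retractor muscle stood behind ovary, head plus chaetae and tail on that scale. In 13 of the 18 the testis came directly after the head in the normalized values. OFUSG21414.1 had 2811 in the blood vessel, against 41.3 in head, 39.5 in tail, 38.4 in midgut, 4.16 in body wall, 0.599 in head plus chaetae and 0 in ovary, retractor muscle and testis. OFUSG24094.1 had 2579 in the blood vessel, against 56.3 in head and at most 11.5, in the tail, elsewhere. Both belong to the 6 of the 18 whose genes have several transcripts in the table.

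With the retractor muscle next, OFUSG09772.3 was the clearest exception to the even testis share. It had 22046 in the blood vessel, against 407 in retractor muscle, 256 in tail, 215 in ovary, 138 in head plus chaetae, 130 in midgut, 130 in body wall, 115 in head and 0 in testis. In CPM the next library of OFUSG09772.3 was the tail (21.8 CPM). On that scale the retractor muscle (7.21 CPM) was the lowest of the libraries that held a read. The other transcripts of its gene held 4273 in the blood vessel and 1592 in testis, so that the testis reads of this gene were assigned to them. OFUSG13929.2 had 2650 in the blood vessel, against 44.0 in retractor muscle and 0 in testis. Of the 22 transcripts with no read in the testis, 17 belong to genes with several transcripts, and their median in the blood vessel was 823.

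With the ovary next, OFUSG24578.1 had 945 in the blood vessel, against 6.15 in ovary, 5.39 in head and 0 in midgut, retractor muscle, tail and testis. OFUSG03602.1 had 12752 in the blood vessel, against 219 in ovary, 210 in testis and 26.5 to 138 in the other 6. In both the ovary was only slightly above the library after it in the normalized values. In CPM OFUSG03602.1 had 19.4 in ovary, against 8.44 in head and 1.71 in testis. The transcripts with a further library next were weakly read there. OFUSG03858.1 had 847 in the blood vessel and 7.13 in body wall, OFUSG07276.1 had 599 and 13.1, and neither was read in the other 7. OFUSG06455.1 had 1369 in the blood vessel and 26.4 in head plus chaetae, and OFUSG08245.1 had 1388 and 37.8. OFUSG04963.2 had 4715 in the blood vessel, against 87.7 in tail and 67.1 in head, with 0 in the other 6. OFUSG00738.1 had 363 in the blood vessel and 2.66 in midgut, which is about 4 reads.

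The 200 transcripts belong to 198 genes, of which 50 (25.3%) have more than 1 transcript in the table, against 17.6% of the genes with a transcript at 100 or more in the blood vessel. OFUSG07898 and OFUSG23822 each have a pair of transcripts in the list. OFUSG23822.1 had 9616 in the blood vessel, against 287 in testis, 99.1 in retractor muscle and at most 33.5, in the ovary, elsewhere. OFUSG23822.2 had 15273 in the blood vessel, against 525 in testis, 138 in retractor muscle and at most 10.6, in the midgut, elsewhere. Transcripts of 1 gene share most of their sequence, and pseudo-alignment divides reads between them by estimate, so values of single transcripts in these 50 genes are uncertain. When the values of all transcripts of a gene were summed, 39 of the 50 genes still met the value and ratio of the selection and 11 did not. In 5 of the 11 the summed value was higher in another library than in the blood vessel. In 26 of the 50 genes the listed transcripts held at least 90% of the blood vessel value of the gene, and in 7 less than 50%.

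**Figure D5:**
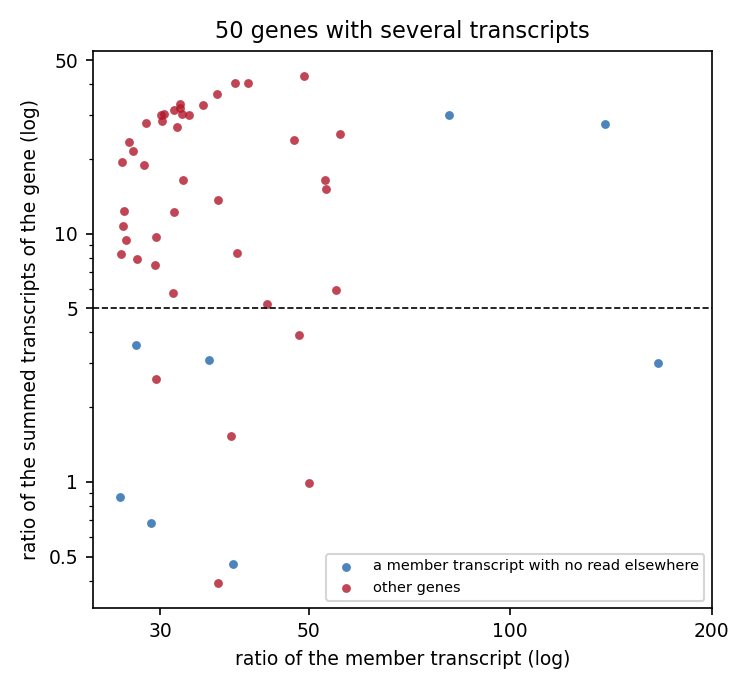
Ratio of the listed transcript (x axis, log) against the ratio of the summed transcripts of its gene (y axis, log) for the 50 genes with several transcripts, with the selection limit of 5 dashed. Below the line lie 11 genes, 6 of them with a listed transcript that has no read outside the blood vessel.

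All 8 transcripts with no read outside the blood vessel belong to such genes, and in 6 of the 8 the summed gene did not meet the selection. Among all transcripts at 100 or more in the blood vessel, 0.135% had no read elsewhere. OFUSG26281.2, first by ratio, had 1653 in the blood vessel (1744 reads, 95% exact Poisson interval 1663 to 1828) and 0 in the other 8, at least 99.7-fold above the 3 reads that 0 allows in the testis. The gene as a whole was read everywhere. OFUSG26281.1 had 599 in the blood vessel, against 419 in head and 58.7 to 210 in 6 other libraries with 0 in midgut, and OFUSG26281.3 had 0 in the blood vessel, against 140 to 411 in 7 libraries with 0 in testis. OFUSG07898.1, second by ratio, had 1375 in the blood vessel and 0 elsewhere, and here the gene itself was restricted, because OFUSG07898.2 had 26466 in the blood vessel, against 995 in testis, 590 in head and 20.2 to 273 in the other 6. OFUSG13930.1, the next, had 799 in the blood vessel and 0 elsewhere, beside OFUSG13930.2 with 649 in the blood vessel and at most 38.4, in the retractor muscle, elsewhere.

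The other 5 of these transcripts were OFUSG07630.3, OFUSG14322.1, OFUSG16397.1, OFUSG00443.2 and OFUSG04265.2, with 251 to 375 in the blood vessel. For the lowest of them, OFUSG04265.2, the value was at least 15.1-fold above what 3 testis reads would give. OFUSG07630.3 had 375 in the blood vessel, while OFUSG07630.1 had 5619 there, against 12779 in ovary, 9166 in retractor muscle and 2996 to 7498 in the other 6. The listed transcript thus made up 6.0% of the blood vessel value of a gene whose sum was highest in the ovary. OFUSG16397.1 had 280 in the blood vessel beside OFUSG16397.2 with 254 there, against 788 in ovary.

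In a further pair of genes, of which OFUSG00823 was named after its values were seen, the transcripts went with different tissues. OFUSG00823.2 had 761 in the blood vessel, against 11.1 in testis and at most 2.73 elsewhere, and OFUSG00823.1 had 7.59 in the blood vessel, against 1970 in ovary and at most 25.8, in the tail, elsewhere. OFUSG04963.2 had 4715 in the blood vessel and 0 in midgut, and OFUSG04963.1 had 0 in the blood vessel and 1205 in midgut. Summed over transcripts, these genes had ratios of 0.393 and 3.89. In the other direction, the sum of OFUSG13929 kept a ratio of 43.2, that of OFUSG11248 40.6 and that of OFUSG16313 40.4, the highest of the 50 genes, the last pair also named after their values were seen.

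Listed genes often carried consecutive numbers. The identifiers number 26974 genes from 1 to 26974 without a gap, and 26 of the 198 listed genes (13.1%) stood directly beside another listed gene, in 2 runs of 3 and 10 pairs. Over all genes, 1.45% stood beside a listed gene. Of the 366 genes that are not listed but stand directly beside a listed one, 30 (8.20%) had a transcript that met the value and ratio of the selection, against 2.53% of all genes outside the list. Whether consecutive numbers are neighbours on a chromosome, and whether such genes are similar copies that share reads, was not determined, as no sequence or position could be matched to the identifiers.

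In the run OFUSG02302 to OFUSG02304 the blood vessel values were 1300, 1439 and 72503. The last of these transcripts, OFUSG02304.1, took nearly all reads of the run, and OFUSG02303.1 was read outside the blood vessel in 3 libraries only, with 27.6 in testis, 8.19 in retractor muscle and 0.714 in tail. In the run OFUSG13928 to OFUSG13930 the listed transcripts had 2590, 2650 and 799 in the blood vessel. Their values elsewhere were at most 77.4, in the testis, for OFUSG13928.1, 44.0 for OFUSG13929.2 and 0 for OFUSG13930.1. Several pairs also joined a gene with many reads to one with few, lengths not considered, such as OFUSG05455.1 and OFUSG05454.1 with 31091 and 1132 or OFUSG04591.1 and OFUSG04590.1 with 14762 and 598 in the blood vessel. OFUSG04144.1 and OFUSG04145.1 differed less in reads, with 15619 and 10771 in the blood vessel, against 348 and 238 in testis. These pairs were chosen after their values were seen.

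With each library in turn in the place of the blood vessel, the same value and ratio were met by 928 transcripts in the blood vessel, 893 in midgut, 375 in head, 240 in ovary, 230 in testis, 201 in head plus chaetae, 155 in tail, 92 in retractor muscle and 52 in body wall. The blood vessel and the midgut thus had by far the longest lists. The length of a list also depends on which libraries it is set against, such as the head against the head plus chaetae. It is therefore no measure of how specialised a tissue is. Brought to CPM and the blood vessel's sum, the list of the midgut (972) was longer than that of the blood vessel (883), so which of them comes first depends on the scale, and the lists of the testis (19) and the retractor muscle (14) were short on that scale. The blood vessel list was also heavy in reads, since its first 200 took 24.2% of their library, against 17.1% for the first 200 of the midgut and 16.2% for those of the ovary. At the upper end the order was different. The highest ratio in the blood vessel, 166, was the lowest of the 9 libraries, in which the others reached from 234 in retractor muscle to 1202 in tail.

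A single library kept many transcripts off the list. Of the transcripts at 100 or more in the blood vessel, 527 missed the ratio of 5 because of exactly 1 of the other 8 libraries, and in 281 of these it was the ovary, in 86 the head, in 72 the midgut and in 43 the testis. These 281 were thus low in the other 7 libraries but not in the ovary. As shares of the 527, the ovary had 53.3%, the head 16.3%, the midgut 13.7% and the testis 8.16%. The highest of the other 8 among all 8906 transcripts at 100 or more in the blood vessel was the ovary in 32.5%. There it was the head in 10.2%, the midgut in 14.6% and the testis in 19.7%, so the midgut share was near this background. At the higher ratio of the last member, 217 transcripts were kept out by 1 library alone, and this was the testis in 110, the head in 62, the retractor muscle in 23 and the ovary in 19. The place of the testis in this count rests on the scale. With each library scaled to the sum of the blood vessel, a calculation added after the values were seen, 176 transcripts were kept out by 1 library at that ratio, the head in 108, the ovary in 42, the midgut in 7, the retractor muscle in 6 and the testis in 1. At the ratio of 5 on that scale there were 550, the ovary in 311, the head in 122, the midgut in 76 and the testis in 0.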

How the data were processed

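The authors removed adaptors from the reads, pseudo-aligned them to their gene models with kallisto 0.44.0 and normalized the counts of the 9 adult tissues with DESeq2 1.34.0 in R 4.1.2 (versions from the submitters' processing notes). What the authors deposited is 1 signal value per transcript and library: a read count divided by a size factor, with a small further factor per transcript that no source explains. The value of 1 read was estimated for each library by least squares from values worth at most 20 reads. Of these, 93.1% (retractor muscle) to 100% (testis) lay within 0.1 read of a whole number, so recovered reads are approximate. With 1 library per tissue no count test could be run on them. CPM was computed by scaling each library to a sum of 1000000. Poisson intervals (95%) and the floor of 3 reads cover counting error only.

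The selection was computed as stated in the results, with ties ordered by identifier. It was checked on simulated reads with planted transcripts that had no read outside the blood vessel. Transcripts of high ratio had been emptied first, so this check does not cover the order near the limit. The members and lists were chosen with earlier results of these data known. Named are the 15 transcripts of highest ratio, the 10 of highest blood vessel value, the 2 of highest ratio for each next library, those with no read elsewhere, genes with several listed transcripts, runs of 3 consecutive numbers and those beside the limit. Others are marked. Transcript lengths, coordinates and sequences were not used here. The alternatives were other constants, minimums, ratios and scales, summed transcripts, and each other library left out of the selection. Python 3.11.15, numpy 2.4.6, pandas 2.3.3, scipy 1.17.1 and matplotlib 3.10.9 were used.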

Additional observations from a re-analysis of the deposited data

How the results depend on the processing

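Under the alternatives tried, between 614 (ratio of at least 10) and 1344 transcripts (ratio of at least 3) met the selection, against 928, and only the 614 differs by over 1.5 times. The 200 transcripts of highest ratio were kept in part. On the CPM scale 124 of the 200 stayed among the first 200, and 127 did with the testis left out of the selection, the lowest counts. With the 30 transcripts above 1% of any library left out of the sums 142 stayed, with a constant of 50 in place of 10 it was 148, and with the head left out 156. Minimums of 50 or 200 or none changed 0 members. This was fixed in advance, because the ratio of the last member (26.0) with a constant of 10 already needs a blood vessel value above 200. With transcripts summed by gene, 166 of the 198 genes stayed, and the genes took 24.6% of the blood vessel library in place of 24.2%. The number with the testis next was 140 in normalized values, 50 in CPM and 60 in recovered reads. Each tissue has 1 library, so no replicate could be left out, and no spread between worms can be given. A testis value of 0 allows up to 16.6, so the share of the testis is loose for weakly read transcripts, and genes whose transcripts share reads are uncertain one by one.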
